A study of Mus musculus with 2 samples.

Results

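The insulin-like growth factor (IGF) family of the ovary comprised 10 genes here, the ligands Igf1 and Igf2, the receptors Igf1r and Igf2r, and the binding proteins Igfbp2, Igfbp3, Igfbp4, Igfbp5, Igfbp6 and Igfbp7. They were chosen by gene symbol, and every probe set that the platform annotation assigned to exactly 1 of these genes was taken. This gave 28 probe sets of the 34945 that named 1 gene, and 10 of 18193 named genes. Whole ovaries came from wild type CD-1 mice aged 24 to 28 days. All mice had received 5 IU of pregnant mare serum gonadotropin (PMSG), which grows a cohort of follicles, and 48 h later 5 IU of human chorionic gonadotropin (hCG), which starts ovulation. The drug or its oil vehicle was given 2 h after hCG, and ovaries were collected at 11 h, without a statement in the labels of which injection that time counts from. The drug was ulipristal acetate (the sample is also labelled CDB), a selective progesterone receptor modulator taken for emergency contraception. There was 1 array per treatment, the number of mice behind each array is not stated, and no test, standard deviation or p-value between treatments is therefore given. Each ratio is ulipristal over vehicle and describes these 2 arrays alone. In whole ovaries, fewer cells of a type and less RNA per cell cannot be told apart.

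IGF1 and IGF2 are small secreted hormones that act mainly through the tyrosine kinase receptor encoded by Igf1r, whereas the Igf2r product binds IGF2 and carries it to lysosomes. Most IGF in tissue fluid is held by binding proteins, and proteases that cut these proteins release it. In the mouse follicle, granulosa cells make IGF1, which amplifies the response to follicle-stimulating hormone (FSH).

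No member reached a 2-fold difference between the arrays in either direction. Among 11364 measured genes, the share past 2-fold was 3.34% for higher and 1.56% for lower signals with ulipristal. All 10 members were measured, which means that the mean log2 signal of their brightest probe set lay at or above the median of the array, a signal of 30.8. The brightest probe set gave a signal above that of vehicle for 9 members and below it for 1, Igfbp3. The median log2 ratio of the members was 0.39, against 0.09 over all measured genes, of which 60.0% lay above 0. The lowest member ratio was -0.42 and the highest 0.66.

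**Figure D1:**
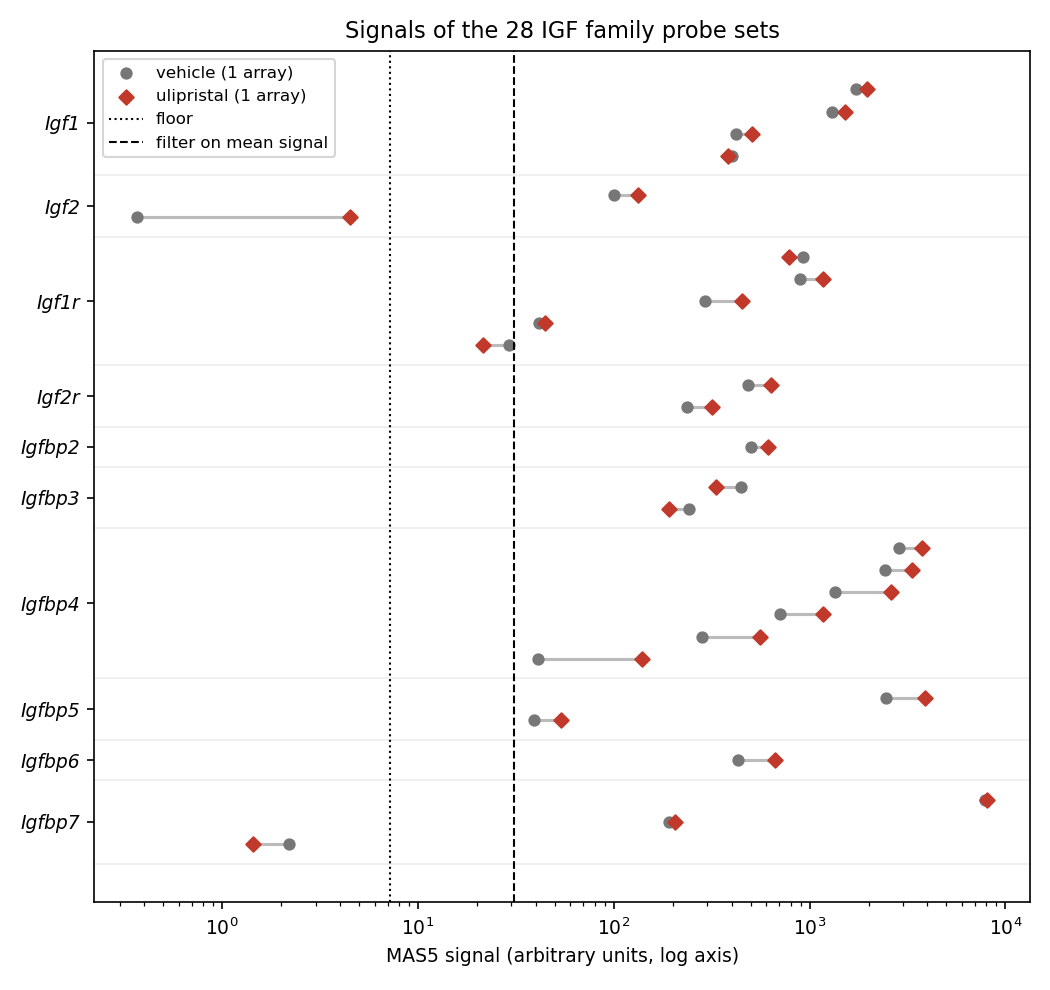
MAS5 signal (arbitrary units, log axis) of each of the 28 probe sets on the vehicle array (grey circles) and the ulipristal array (red diamonds), with the floor of 7.17 (dotted) and the filter at a mean signal of 30.8 (dashed). All 6 Igfbp4 probe sets read higher with ulipristal and both Igfbp3 probe sets lower, whereas the 4 measured probe sets of Igf1r went both ways.

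The promoters of the binding protein genes at the ends of that range are printed because Igfbp4, Igfbp5 and Igfbp6 had the highest ratios among the binding proteins, with Igfbp3 alone below 0. Each run is the 250 bases before the gene's start in RefSeq (build GRCm38.p6), 5′ to 3′ on the gene's own strand. Capitals mark exact matches, on either strand, to the progesterone and glucocorticoid receptor half-site (TGTTCT or AGAACA), the GC box (GGGCGG or CCGCCC), the CCAAT box (CCAAT or ATTGG), the TATA box (TATAAA or TTTATA) and the cyclic AMP response half-site (TGACG or CGTCA), none of which contains another.
Igfbp4, chr11:99040994-99041243, plus strand: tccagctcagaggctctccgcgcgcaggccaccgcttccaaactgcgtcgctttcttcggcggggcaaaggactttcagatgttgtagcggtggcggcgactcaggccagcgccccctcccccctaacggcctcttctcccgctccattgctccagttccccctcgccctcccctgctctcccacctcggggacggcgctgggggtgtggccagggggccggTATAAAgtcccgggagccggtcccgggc
Igfbp5, chr1:72874866-72875115, minus strand: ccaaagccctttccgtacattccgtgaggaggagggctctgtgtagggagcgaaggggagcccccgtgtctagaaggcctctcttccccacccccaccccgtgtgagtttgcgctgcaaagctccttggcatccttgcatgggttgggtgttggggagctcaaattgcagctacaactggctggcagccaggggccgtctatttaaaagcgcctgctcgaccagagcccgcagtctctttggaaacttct
Igfbp6, chr15:102143936-102144185, plus strand: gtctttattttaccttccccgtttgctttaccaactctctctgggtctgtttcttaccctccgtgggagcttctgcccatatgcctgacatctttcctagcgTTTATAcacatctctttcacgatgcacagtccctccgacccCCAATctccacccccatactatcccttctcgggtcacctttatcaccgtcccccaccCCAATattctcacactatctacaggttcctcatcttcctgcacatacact
Igfbp3, chr11:7213924-7214173, minus strand: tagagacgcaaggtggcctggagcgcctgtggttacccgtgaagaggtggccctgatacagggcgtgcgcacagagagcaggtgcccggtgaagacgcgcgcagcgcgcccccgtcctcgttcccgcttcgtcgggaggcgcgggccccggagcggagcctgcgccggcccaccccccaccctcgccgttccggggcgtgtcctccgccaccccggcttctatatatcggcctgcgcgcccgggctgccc

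The Igfbp4 promoter held a TATA box that began 28 bases before the start. The Igfbp6 promoter held CCAAT boxes at 50 and 107 bases before the start and a TTTATA match at 148 bases. The windows of Igfbp5 and Igfbp3 held no exact match to any of these motifs, and looser forms of the motifs were not searched. The receptor half-site occurred in 2 of the 14 member promoters, 1 of the 4 of Igf2 and 1 of those of Igfbp2, and in 16.1% of all 32851 promoters in the table. GC boxes occurred in 6 of the 14 and in 32.7% of all, and TATA boxes in 2 of the 14 and in 12.4% of all. CCAAT boxes occurred in 3 of the 14 and 33.8% of all, and cyclic AMP half-sites in 2 of the 14 and 17.8% of all. A match describes the letters of the sequence and not a bound site.

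Among the ligands, Igf1 was close between the arrays. Its brightest probe set read 1723 with vehicle and 1960.5 with ulipristal, a 1.14-fold higher signal. The other 3 probe sets read 1304 and 1519.7, 421 and 507, and 403 and 381. The probe sets of Igf1 therefore did not share a direction, with log2 ratios from -0.08 to 0.27. Igf2, the fetal growth factor whose gene is expressed from the paternal copy, had 1 measured probe set, at 99.9 with vehicle and 134 with ulipristal, or 1.34-fold higher. The second Igf2 probe set read 0.367 and 4.48, both under the floor of 7.17, and gives no direction. The log2 ratio of Igf2 was 0.23 above that of Igf1.

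The receptors had almost equal ratios on their brightest probe sets, which hid a difference in how well their probe sets matched. Igf2r, the clearance receptor for IGF2, read 482 with vehicle and 638 with ulipristal on one probe set and 236 and 318 on the other. Both gave higher signals with ulipristal, by 1.32-fold and 1.35-fold. A further probe set is assigned to both Igf2r and Airn, the antisense RNA of that locus, and was not used. Igf1r, the signalling receptor, read 897 and 1170.2 on its brightest probe set, which was 1.30-fold higher with ulipristal. A second probe set of almost the same vehicle signal read 926 and 785, which is 1.18-fold lower. The remaining measured ones read 292 and 454, and 41.5 and 44.3, and the fifth, too dim to count as measured, read 29.0 and 21.4. The measured Igf1r probe sets spanned log2 ratios from -0.24 to 0.63. Among the 474 genes of the array with 4 measured probe sets, the median span was 0.65 and 28.9% had all of them on one side of 0, so a split like that of Igf1r was common.

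Igfbp4, an inhibitory carrier of IGFs in the follicle, had the widest spread of ratios among the members' probe sets. Its brightest probe set read 2847 with vehicle and 3766 with ulipristal, which at 1.32-fold was the smallest difference of the 6. The next 3 by signal read 2414 and 3329.8 (1.38-fold), 1354 and 2614 (1.93-fold), and 710.2 and 1166 (1.64-fold). The dimmest read 281 and 561, just under 2-fold, and 41.2 and 139.6, which was 3.39-fold higher. All 6 were higher with ulipristal, and the last was the only one of the 25 measured member probe sets past 2-fold in either direction. Of all measured probe sets that named 1 gene, 3.20% were past 2-fold upwards and 2.02% downwards. The median over the 6 was 0.83 on the log2 scale, or 1.78-fold.

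The Igfbp4 probe sets can be paired by the target sequence on which they were designed, but only the brightest pair had close ratios. The pair on the target of the brightest probe set gave log2 ratios of 0.40 and 0.46. The pair on the next target gave 0.95 and 0.72, and the pair on the dimmest target gave 1.0 and 1.76. The ratio of 1.0 lay nearer to the 0.95 of the other target than to the 1.76 of its own. The mean log2 ratios were 0.43, 0.83 and 1.38 from the brightest target to the dimmest. The fold of this gene depends on which probe set represents it. Of 76 genes with 6 measured probe sets, 6 had all of them higher with ulipristal, and the span of Igfbp4, 1.36 on the log2 scale, was 21st from the widest.

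Igfbp5, a matrix-associated binding protein, had the highest ratio of the 10 members when each was represented by its brightest probe set. It read 2452 with vehicle and 3864 with ulipristal on its brightest probe set, which was 1.58-fold higher, and 39.2 and 53.9 on a dim one, 1.37-fold higher. Igfbp6, which binds IGF2 in preference to IGF1, read 430.0 and 662 on its single probe set, 1.54-fold higher. These were the 2 of 10 members at least 1.5-fold higher, against 12.3% of all measured genes, and 0 of 10 were at least 1.5-fold lower, against 4.58%. The top rank of Igfbp5 depended on the processing. With the median over probe sets, its log2 ratio was 0.56, under Igfbp4 (0.83) and Igfbp6 (0.62). Without s and x probe sets (IDs that can bind several transcripts) it was 0.46, again under Igfbp6 (0.62). Ratios on these arrays shifted with signal, from a median of 0.22 in the signal decile that held Igf2 to -0.12 in the brightest decile. Igfbp5 stood 0.78 above the median of that brightest decile, where 1.5% of 1137 genes had a ratio as high. Igfbp4 on its brightest probe set stood 0.53 above the same median, where 5.01% had a ratio as high, and Igfbp6 0.59 above the median of its own decile, where 3.79% did. For the other members above 0, the share of their own decile with a ratio as high ran from 7.57% (Igf1r) to 31.1% (Igf2).

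Igfbp3, the main IGF carrier of serum, was the single member below 0. It read 445 with vehicle and 332 with ulipristal on its brightest probe set and 242 and 192 on the other, 1.34-fold and 1.26-fold lower. Both probe sets therefore went the same way, and 5.63% of the genes in its signal decile had a ratio as low. Its log2 ratio was 1.08 below that of Igfbp5, 1.05 below that of Igfbp6 and 0.83 below that of Igfbp4. Whether these differences between genes exceed the variation between mice was not tested.

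Igfbp2 and Igfbp7 lay between. Igfbp2, a binding protein with an integrin-binding motif, read 501 with vehicle and 617 with ulipristal on its single probe set, 1.23-fold higher. Igfbp7, a matrix protein of blood vessels that binds IGFs weakly, read 7824 and 8078 on its brightest probe set and 192 and 206 on the next, 1.03-fold and 1.07-fold higher. Its last probe set read 2.21 and 1.43, under the floor on both arrays. After the ratios were centred on the median of all measured probe sets, which lay at 0.06, Igfbp7 had a log2 ratio of -0.01, so it has no settled direction. Of the 7 members with more than 1 measured probe set, 5 had all of them on one side of 0, and the exceptions were Igf1 and Igf1r. Over the array, 51.5% of 4955 genes with 2 or more measured probe sets had all of them on one side, and 62.0% of those with 2.

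**Figure D2:**
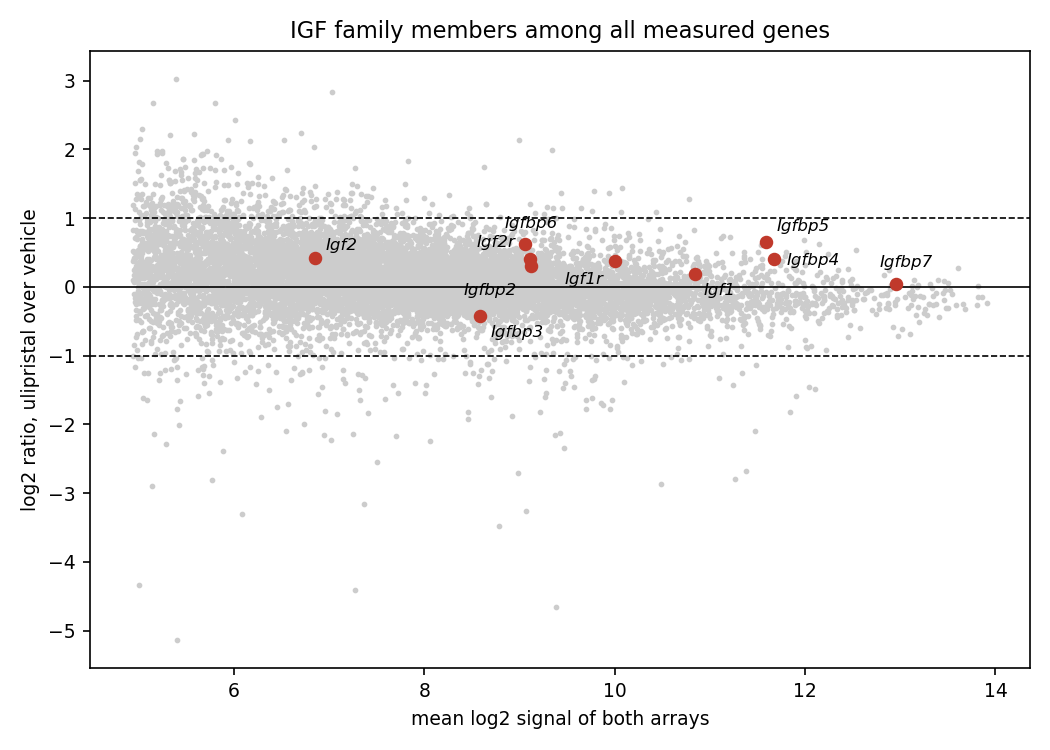
Log2 ratio of ulipristal over vehicle against the mean log2 signal of both arrays for all 11364 measured genes (grey), with the 10 members in red and the 2-fold lines dashed. Igfbp5 (0.66) and Igfbp4 (0.40) lie towards the upper edge of genes of similar signal, and Igfbp3 (-0.42) towards the lower edge.

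The pathway around the family was followed through a list of 50 other genes, of which 36 were measured, 8 were too dim and 6 had no probe set naming them alone. None of the 36 reached 2-fold in either direction. Their median log2 ratio was 0.14, with 22 above 0 and 14 below, or 61.1% above 0 against 60.0% of all measured genes. At 1.5-fold, 6 of 36 (16.7%) were higher and 1 (2.78%) lower, beside 12.3% and 4.58% of all genes. The carrier Igfbp1, the serum complex partner Igfals and the related gene Igfbpl1 were all too dim, with signals from 0.657 to 5.32, and were chosen after their values were seen.

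Proteases of the binding proteins and the inhibitors of those proteases had a median log2 ratio of -0.32, with 4 of 6 measured members below 0 and 0 of 6 past 2-fold. Of all measured genes, 60.0% lay above 0, with a median of 0.09, and 3.34% were past 2-fold upwards and 1.56% downwards. Pappa2, a metalloproteinase that cleaves IGFBP3 and IGFBP5 in humans, had the lowest ratio of the whole pathway list, with signals of 129 for vehicle and 71.7 for ulipristal, 1.80-fold lower on its single probe set. Pappa, the related protease that cleaves IGFBP4, read 263 and 183, 1.44-fold lower, and its 2 measured probe sets gave -0.54 and -0.52. The secreted inhibitors of these proteases went in different directions, since Stc1, stanniocalcin 1, read 366 and 277 (1.32-fold lower), and Stc2 read 51.0 and 71.0 (1.39-fold higher, with 3 of 3 probe sets higher). Of the HTRA serine proteases, Htra1 was 1.18-fold lower, at 4663 and 3966, and Htra3 was 1.65-fold higher, at 329 and 542. Pappa, Stc1, Stc2, Htra1 and Htra3 were chosen after their values were seen. On these arrays the signal of Igfbp4 was higher and that of the protease gene Pappa lower in the ulipristal sample. The genes of the substrates named for Pappa2 did not share a direction, with log2 ratios of -0.42 for Igfbp3 and 0.66 for Igfbp5. A link between these proteases and the binding proteins was not tested. No protein or cleavage was measured.

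Genes downstream of the receptor were read against all measured genes, of which 60.0% lay above 0 with a median of 0.09. Among adaptors, 5 of 7 measured genes lay above 0 with a median of 0.15, near that background. Irs1, which docks signalling proteins to the IGF1 and insulin receptors, read 564 with vehicle and 1033 with ulipristal, 1.83-fold higher, whereas Irs2, the related docking protein, read 96.5 and 92.1. Shc1, an adaptor towards the ERK pathway, read 145 and 257, 1.77-fold higher with both probe sets in that direction. Irs2 and Shc1 were chosen after their values were seen. Insr, the insulin receptor, was the only other receptor measured and went the opposite way to Igf1r's brightest probe set, at 786 and 602, 1.30-fold lower.

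Kinases and phosphatases of the pathway had a median of 0.20 with 6 of 9 above 0, and targets of the kinase AKT also had a median of 0.20, with 6 of 7 above 0, beside 0.09 and 60.0% for all measured genes. Pik3r2, a regulatory subunit of phosphoinositide 3-kinase, read 89.3 and 138, 1.55-fold higher. Tsc2, which AKT inhibits to release mTOR, read 140.2 and 244, 1.74-fold higher. Genes of growth hormone signalling, the input that drives IGF1 in liver, were centred near 0 with a median of -0.01 over 5 genes. Stat5a, a transcription factor of that input, read 140.1 and 223, 1.59-fold higher. Plagl1, an imprinted transcription factor, read 2964 and 2992 on its brightest probe set, while its other measured probe set gave a log2 ratio of -1.12.

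**Figure D3:**
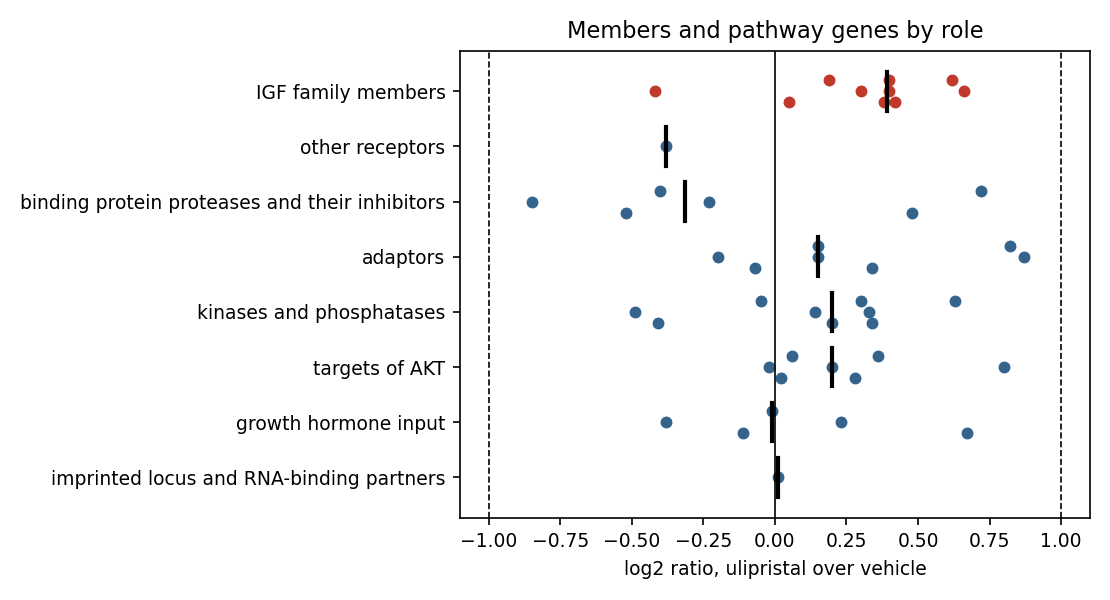
Log2 ratio of ulipristal over vehicle for the 10 members (red) and the 36 measured pathway genes (blue) by role, 1 point per gene, with the median of each row as a black bar and the 2-fold limits dashed. No point lies past 2-fold, and the proteases and their inhibitors spread from -0.85 (Pappa2) to 0.72 (Htra3).

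Markers of the cell types that a whole ovary can hold were set beside these values. Genes that define the ovary were measured on both arrays, among them the inhibin subunit Inha of granulosa cells (6933 with vehicle and 8212 with ulipristal) and the oocyte growth factor Gdf9 (309 and 329), examples taken from the marker lists with their values in view. The 8 granulosa markers had a median log2 ratio of 0.97 and signals that summed to 12346 with vehicle and 16514 with ulipristal, and 7 of 8 were higher. Stroma markers had a median of 0.34 (4 of 5 higher, summed signals of 16663 and 19889.9), smooth muscle and pericyte markers 0.35 (5 of 6, 12403 and 13903) and endothelial markers 0.67 (6 of 7, 1281 and 1601.5). Of all measured genes 60.0% lay above 0, so a positive sign alone links no member to a cell type.

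Markers of tissue next to the ovary and of its surface were higher as well. Oviduct markers had a median of 1.29, with 6 of 6 measured higher and summed signals of 3825 and 6122. Most of these sums came from Ovgp1, at 3641 and 5642, which was 1.55-fold higher. The other measured oviduct markers were dim with vehicle, from 19.1 (Foxj1) to 57.5 (Tmem212). Foxj1 and Ccdc39 were under the filter signal of 30.8 with vehicle and passed through the ulipristal array. Adipose markers had a median of 0.92 (3 of 3 higher, 1827 and 2586) and surface epithelium markers 0.76 (6 of 6 higher, 1164 and 1804). Smaller medians were seen for theca and interstitial markers (0.41, 4 of 5 higher, 5039 and 6815), oocyte markers (0.19, 5 of 6, 1384 and 1614) and macrophage markers (0.18, 6 of 6, 1045 and 1248). All marker counts rest on the brightest probe set of each gene. Of the macrophage markers, C1qb was lower on 2 of its 3 measured probe sets and Csf1r on 1 of 3. The fifth theca marker, Hhip, a hedgehog-binding protein, went the other way, at 280.3 with vehicle and 60.0 with ulipristal, 4.67-fold lower with 3 of 3 measured probe sets lower. Hhip was the only one of the 63 measured markers at least 2-fold lower, beside 1.56% of all measured genes. At least 2-fold higher were 15 of the 63, beside 3.34% of all, among them Tcf21 of the same theca list (2.22-fold). Over markers at or above 30.8 on both arrays, a filter added after seeing the data, the medians were 1.17 for oviduct (4 genes), 0.67 for adipose (2, without Cidec) and 0.42 for endothelial markers (6, without Tie1). That of granulosa markers was 1.18 over 7 genes. It left out Amh, the only granulosa marker that was lower, at 48.7 with vehicle and 30.1 with ulipristal. The medians of the other lists stayed as given. Luteinizing markers had a median of -0.03, with 2 of 5 higher and summed signals of 52352 and 49888. Of the defining markers, Gli1 (theca) and Pax8 (oviduct) were too dim to be measured, and Insl3 and Plin1 had no probe set naming them alone. The part of any of these cell types in the ratios of the IGF family was not tested.

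**Figure D4:**
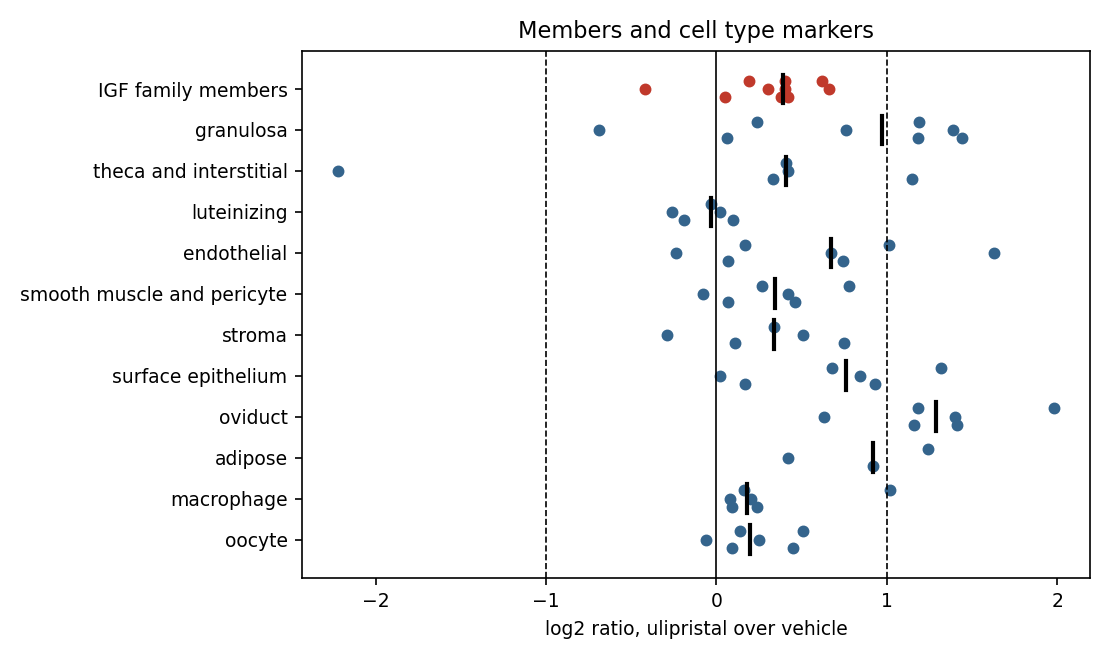
Log2 ratio of ulipristal over vehicle for the 10 members (red) and the measured markers of 11 cell types (blue), 1 point per gene, with the median of each row as a black bar and the 2-fold limits dashed. The medians run from -0.03 for luteinizing to 1.29 for oviduct markers, with the members at 0.39.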

How the data were processed

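Total RNA of whole ovaries, 100 ng per sample, was hybridised to Affymetrix Mouse Genome arrays, as the labels' protocols state. The table deposited by the authors holds 1 linear intensity per probe set and array. MAS5 and Affymetrix Expression Console version 1 are named in the submitters' processing notes, without their roles. The mean without the lowest and highest 2% was 150.001 on both arrays, which hides any shift common to most genes. The sources used here give no genome build, and promoter coordinates come from RefSeq. The precision is limited by the number of arrays, 1 per group. Groups came from the treatment labels.

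Of 45101 probe sets, 64 controls were left out of every step. The 932 with several genes and the 9160 with none entered the floor, the filter and the normalizations, but were left out of the gene ratios. Gene identifiers of 34741 of the 34945 others were found in the RefSeq gene table (GRCm38.p6), and 0 symbols differed. Signals under 7.17, the 25th percentile, were set to that floor before log2. A gene was represented by its brightest probe set, kept at or above the median, a signal of 30.8, and called at 2-fold. Signal deciles were formed over measured genes. The members and lists were chosen with earlier results of these data known, and the deciles after seeing the values.

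The text names all members, each pathway gene past 2-fold and the pathway gene with the largest ratio in each role. Other pathway genes and markers were chosen after their values were seen. Steps were tested on simulated data. The alternatives tried were 3 normalizations (median centring, quantile, and lowess with fraction 0.3), 3 treatments of low signals (no floor, the 50th percentile as floor, 50 added to every signal), 2 filters (none, and the 75th percentile), the median over probe sets, no s or x probe sets (IDs that can bind several transcripts), and 1.5-fold and 3-fold. The software was matplotlib 3.10.9, statsmodels 0.14.6, pandas 2.3.3, numpy 2.4.6 and Python 3.11.15.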

Additional observations from a re-analysis of the deposited data

How the results depend on the processing

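Of 99 recomputed member ratios, 98 kept their sign and stayed under 2-fold, and 1 reversed, Igfbp7 at -0.01 after median centring. Many of these could hardly change. No floor, the higher floor and both filters returned the reported ratio wherever a member had a value. Leaving out s and x probe sets changed only Igfbp5. The median over probe sets could not change Igf2, Igfbp2 or Igfbp6, with 1 measured probe set each. The 98 are therefore not separate checks. Igfbp3 ranged from -0.48 to -0.37, Igfbp4 from 0.34 to 0.83 and Igfbp5 from 0.46 to 0.81 on the log2 scale. Igf2 gave no value with the filter at the 75th percentile. The count of members past the threshold was 0 in both directions under every alternative except 1.5-fold, which gave 2 higher. For the pathway list 1.5-fold gave 6 higher and 1 lower, no filter gave 1 higher (Irs4, at least 2.58-fold, with vehicle under the floor, at signals of 2.01 and 18.5), and leaving out s and x probe sets gave 1 lower (Plagl1, 2.17-fold), as its brightest probe set was then not used. These counts were otherwise 0. Irs4 and Plagl1 differ through fewer or more probe sets entering, by construction. No paired analysis was possible because each treatment has 1 array, and no replicate could be left out. With markers required to reach the filter on both arrays, all 11 marker medians kept their sign. That of granulosa markers passed 2-fold (1.18) because the filter left out Amh, the only granulosa marker that was lower.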

Other observations

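Members that lie next to each other in the genome were compared. Igfbp2 and Igfbp5 are neighbouring protein-coding genes on chromosome 1 in the RefSeq table, and both were higher with ulipristal, by 1.23-fold and 1.58-fold. So were 9 of the 10 members and 60.0% of all measured genes, and a link through the shared locus was not tested. Igfbp3 lies beside Igfbp1 on chromosome 11, and Igfbp1 was too dim to compare, at 5.32 with vehicle and 0.992 with ulipristal. The antisense transcripts of the ligand genes, Igf1os and Igf2os, were also too dim, at 1.07 and 1.35, and at 10.4 on both arrays. The RNA-binding proteins Igf2bp1 and Igf2bp3, which bind Igf2 messenger RNA, had brightest signals of 4.87 and 10.1, and of 23.0 and 27.6. All genes of this paragraph and the next were picked with their values in view.

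Several genes of the pathway list had probe sets that did not share a direction, which was common over the array. All measured probe sets lay on one side of 0 for 18.4% of the 76 genes with 6 of them. For the 1223 genes with 3 the share was 41.7%. Gsk3b, a kinase that AKT inhibits, had 6 measured probe sets with log2 ratios from -0.40 to 1.05 and a ratio of 0.06 on the brightest. Akt1 ranged from -0.22 to 0.82 over 3 probe sets, and Socs2, a feedback inhibitor of growth hormone signalling, from -0.39 to 0.53 over 6. Foxo1, a transcription factor of granulosa cells that AKT keeps out of the nucleus, was higher on 3 of 3 probe sets, from 0.28 to 0.77. Akt2 was higher on 3 of 3 as well, from 0.34 to 0.67.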
